A study of Mus musculus with 3 samples.

Results

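Genes for protein folding, translocation and quality control in the endoplasmic reticulum (ER) were followed in lymph node stromal cells after knockdown of Eif4g3, a scaffold protein of the eIF4F complex that recruits ribosomes to mRNAs. The list holds 36 gene names chosen for their function, and a gene was taken where a non-control probe of the array carried its name. By that rule 34 of the 36 were found among 27745 gene names, with 65 of 41174 probes. The other 2, Dnajc3 and Serp1, were on the array under older names (Dnajc3a and D3Ucla1) and are given apart, outside all counts of listed genes. Armet is the array's name for the gene now called Manf.

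The cells were stromal cells grown from lymph nodes of BALB/c mice, non-immune cells that build the node's framework. One group received 400 pmol of siRNA against Eif4g3 and the other the same amount of control siRNA, by lipofection, with a change of medium at 24 h and harvest at 48 h. For each siRNA, 7 plates were combined, and the lysate was spun through a 10% to 60% sucrose gradient, which sorts mRNAs by the number of ribosomes they carry, and gradient fractions were pooled into a top, a light polysome and a heavy polysome RNA. Each of the 3 RNAs was hybridised to 1 Agilent 2-colour mouse array with the Eif4g3 siRNA RNA in Cy5 and the control siRNA RNA in Cy3, so each ratio is of Eif4g3 siRNA over control siRNA within 1 fraction. The dyes had the same orientation on the 3 arrays and each fraction had 1 array: no p-value was computed, the error beside each ratio (±) is the scanner software's error of the spots alone, and a dye effect and an siRNA effect cannot be told apart. RNA of unfractionated cells was not analysed here, and since cells of each siRNA were pooled, fewer cells of a type and less RNA per cell cannot be told apart.

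Proteins that enter the secretory pathway pass through the Sec61 channel into the ER, where the Hsp70 chaperone BiP (Hspa5) and its J-domain partners, the lectin chaperones calnexin and calreticulin, and the disulfide isomerases fold them. Proteins that fail to fold are taken back to the cytosol by the Derlin, Sel1l and Syvn1 machinery and degraded. When unfolded proteins gather, the sensors Ern1 (IRE1), Atf6 and Eif2ak3 (PERK) start the unfolded protein response, in which Atf6 and spliced Xbp1 bind ER stress elements in the promoters of many chaperone genes.

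On the top, light and heavy arrays, 34.8%, 50.2% and 51.6% of probes were well above background in both channels, and 32, 34 and 34 of the 34 listed genes were measured by such probes. Sel1l and Derl3 had no ratio on the top array. A signal below is a normalized intensity in arbitrary units, which can be compared between the 2 channels of an array but not between genes or arrays. Eif4g3 itself had 108, 945 and 1470 units in the Eif4g3 siRNA channel of the top, light and heavy arrays, against 145, 1972 and 5008 units in the control siRNA channel, log2 ratios of -0.43 ± 0.16, -1.06 ± 0.16 and -1.77 ± 0.19. Its top signals were dim, where the normalization pulls ratios towards 0, and the scanner software's log2 ratios were -0.80, -1.13 and -1.79. Fibroblastic stroma markers matched the label, with 12, 12 and 12 of 12 well above background in the Eif4g3 siRNA channel and 11, 11 and 12 in the control siRNA channel. Their median log2 ratios were -0.11, 0.03 and -0.27, and the ratios ran from -0.39 to 1.05 on the top, -0.35 to 1.14 on the light and -0.68 to 0.37 on the heavy array, with Vim highest and Vcam1 lowest on each. Of 5 markers of plasma cells, a secretory cell type rich in these chaperones, Sdc1 alone was above background, with log2 ratios of -0.51, -0.96 and -0.51. Of 5 endothelial markers 0, 2 and 2 were above background in the Eif4g3 siRNA channel and 0, 1 and 4 in the control siRNA channel.

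The promoters show what several of these genes share. The ER stress element was searched as CCAAT, 9 bases of any kind and CCACG, on both strands, in the 250 bases before and 50 bases after each transcription start in RefSeq (mouse build GRCm38.p6). It was found for 8 of the 28 listed genes with a promoter in that table (28.6%), against 37 of 27025 genes in all (0.137%), and in 39 of 32851 promoters (0.119%). The 8 are Hspa5, Hsp90b1, Canx, Calr, Pdia6, Creld2, Syvn1 and Derl3, and the promoter of Dnajc3, listed under its older array name, also holds it. The shorter CCACG, which lies within the element and is far more common, was in 23 of the 28 (82.1%) against 35.5% of all genes. TGACGTGG, from the unfolded protein response element, and TGACGTCA, the cAMP response element, were in none of the 28, against 0.714% and 2.03% of all genes. A match of letters is a description and not a shown binding site. The ER stress element is known from promoters of chaperone genes, and the list was chosen by function. Its higher share among the listed genes is therefore no independent result. The stretches around the element are printed 5′ to 3′ on the gene's strand because they set apart the subset of genes compared further below, and capitals mark the outer parts of the element, written CCAAT and CCACG or, in the reverse orientation, CGTGG and ATTGG. Hsp90b1 holds 2 elements, 1 in each orientation.
Hspa5, chr2:34772013-34772055, plus strand: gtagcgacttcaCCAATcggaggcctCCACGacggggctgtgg
Hsp90b1, chr10:86705521-86705668, minus strand: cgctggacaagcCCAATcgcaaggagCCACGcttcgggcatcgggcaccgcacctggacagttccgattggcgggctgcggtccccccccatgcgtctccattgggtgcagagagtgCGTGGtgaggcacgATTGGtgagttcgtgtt
Canx, chr11:50325788-50325830, minus strand: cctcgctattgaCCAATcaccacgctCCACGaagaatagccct
Calr, chr8:84847063-84847105, minus strand: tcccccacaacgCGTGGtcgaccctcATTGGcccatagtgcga
Pdia6, chr12:17266479-17266521, plus strand: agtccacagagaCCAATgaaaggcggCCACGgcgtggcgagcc
Creld2, chr15:88819508-88819550, plus strand: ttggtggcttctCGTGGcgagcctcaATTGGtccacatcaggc
Syvn1, chr19:6046520-6046562, plus strand: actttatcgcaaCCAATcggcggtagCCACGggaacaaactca
Derl3, chr10:75893230-75893272, plus strand: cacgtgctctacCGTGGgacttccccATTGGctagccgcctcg
Dnajc3, chr14:118937815-118937857, plus strand: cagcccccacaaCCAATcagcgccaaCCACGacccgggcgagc

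The ER genes as a list lay lower with Eif4g3 siRNA in the top fraction and in heavy polysomes, and near the other genes in light polysomes. The median log2 ratio of the listed genes was -0.29 on the top array, -0.01 on the light and -0.21 on the heavy, against 0.00, 0.02 and -0.01 over all measured genes. Ratios were below 0 for 28 of 32 listed genes on the top array, 19 of 34 on the light and 23 of 34 on the heavy, against 49.6%, 47.4% and 51.7% of all measured genes. With the brightest probe of each gene in place of the mean of its probes, the heavy median was -0.06, against -0.004 over all genes. The size of the heavy shift thus depends on how probes are combined, whereas the top median was then -0.36. Without the loess step of normalization the medians of all genes were 0.03, 0.62 and -0.74, and the cause of these array-wide shifts was not tested. Relative to those medians the listed genes lay at -0.30, 0.21 and -0.29, so the light array's small shift changed sign while the other shifts did not. The fibroblastic stroma markers were also below 0 for 9 of 11 on the top and 7 of 12 on the heavy array, among them Col1a1 at -0.55, Col3a1 at -0.50 and Vcam1 at -0.68 on the heavy array, and their part in the shift of the listed genes was not tested.

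At 2-fold, a log2 ratio of 1 or -1, 2 of the 34 listed genes were lower in heavy polysomes (Dnajc1 and Canx), against 0.306% of 14402 measured genes, and none was higher, against 0.507%. None passed 2-fold on the top array, where 0.429% of measured genes were higher and 0.265% lower, or on the light array, where 0.397% were higher and 0.291% lower. At 1.5-fold, 6 of 32 were lower on the top array (Hspa5, Fkbp2, Creld2, Sdf2l1, Pdia3 and Dnajb11), against 2.52% of all genes, and none was higher, against 2.76%. On the light array 3 of 34 were lower at 1.5-fold (Dnajc1, Pdia3 and Canx), against 2.63%, and none was higher, against 3.48%. On the heavy array 6 of 34 were lower at 1.5-fold (Dnajc1, Canx, Calr, Pdia3, Hspa5 and Pdia4), against 3.71%, and Sec61g alone was higher, against 3.52%. Pdia3 was lower at 1.5-fold on each of the 3 arrays, though without loess its light value was -0.29 relative to the median of all genes, within 1.5-fold.

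**Figure D1:**
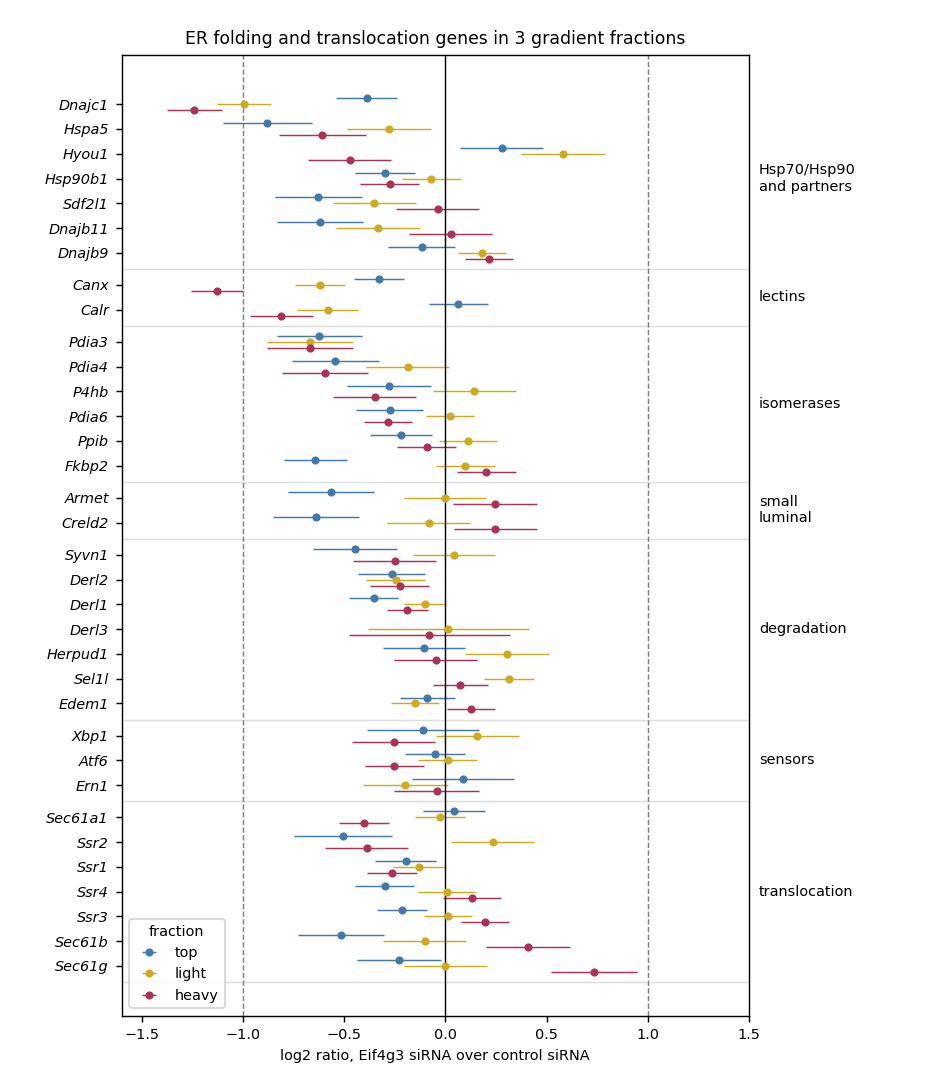
Ratio of Eif4g3 siRNA to control siRNA on the log2 scale (x axis) for each of the 34 listed genes (y axis, grouped by role) on the top, light and heavy arrays, with 1 point per array and bars for the software's spot error. Dashed lines mark 2-fold; the heavy array's points for Dnajc1 and Canx alone lie beyond them, and Sec61g has the highest heavy ratio, 0.74.

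BiP and its partners varied among themselves. Hspa5, the Hsp70 chaperone of the ER, had 904, 33847 and 41108 units in the Eif4g3 siRNA channel of the top, light and heavy arrays, against 1662, 41072 and 62686 units in the control siRNA channel. Its log2 ratios were -0.88 ± 0.22, -0.28 ± 0.21 and -0.61 ± 0.21 from a single probe, so the Eif4g3 siRNA channel was the lower one in every fraction and most so in the top, where Hspa5 was the lowest of the listed genes; without loess, its light value lay 0.16 above the median of all genes, and the other signs held. Hsp90b1 (GRP94), the Hsp90 of the ER lumen, had 3636, 34765 and 54860 units with Eif4g3 siRNA against 4469, 36503 and 66376 units with control siRNA, ratios of -0.30 ± 0.15, -0.07 ± 0.15 and -0.27 ± 0.15. Its 2 probes lay on both sides of 0 in the top fraction (-0.71 and 0.12) and in light polysomes (-0.37 and 0.23), so its direction there is uncertain, while in heavy polysomes both were below 0 (-0.39 and -0.16).

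Dnajc1, a membrane J-protein of the ER that works with BiP, was the lowest of the listed genes in light and in heavy polysomes. It had 249, 506 and 797 units in the Eif4g3 siRNA channel of the top, light and heavy arrays, against 326, 1009 and 1882 units in the control siRNA channel. The log2 ratios were -0.39 ± 0.15, -0.99 ± 0.13 and -1.24 ± 0.14, and in heavy polysomes the control siRNA signal was 2.36 times the Eif4g3 siRNA signal. All 3 of its probes were beyond 2-fold in heavy polysomes (-1.44, -1.26 and -1.02), while in light polysomes they read -1.26, -1.22 and -0.50 and the 2 measured in the top fraction -0.62 and -0.16. The probes map to chr2:18131969-18132028, chr2:18135034-18137218 and chr2:18224759-18224818 on the files' mm8 build, minus strand.

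The soluble J-proteins did not share that pattern. Dnajb11 (ERdj3), a luminal partner of BiP, had 1360, 15098 and 22726 units with Eif4g3 siRNA against 2090, 19007 and 22316 units with control siRNA, ratios of -0.62 ± 0.21, -0.33 ± 0.21 and 0.03 ± 0.20. Sdf2l1, which sits in a complex with Dnajb11, had ratios of -0.63 ± 0.21, -0.35 ± 0.21 and -0.04 ± 0.20, so both were low in the top fraction and near 0 in heavy polysomes. Dnajb9 (ERdj4), a J-protein that serves BiP and degradation, had ratios of -0.12 ± 0.17, 0.18 ± 0.12 and 0.22 ± 0.12. Dnajc3 (P58IPK), another luminal J-protein, read by 4 probes under its older name, had -0.32 ± 0.11, -0.01 ± 0.10 and 0.24 ± 0.10.

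Hyou1 (GRP170), a large Hsp70 relative that exchanges nucleotide on BiP, ran the other way in light polysomes. Its single measured probe had 847, 7140 and 9932 units in the Eif4g3 siRNA channel of the top, light and heavy arrays, against 699, 4770 and 13786 units in the control siRNA channel. The ratios were 0.28 ± 0.21, 0.58 ± 0.21 and -0.47 ± 0.21, the highest of the listed genes on the top and light arrays and below 0 on the heavy array.

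The lectin chaperones, which hold glycoproteins during folding, were both low in polysomes. Canx (calnexin, the membrane lectin) had 259.8, 1920 and 2530 units in the Eif4g3 siRNA channel of the top, light and heavy arrays, against 327, 2951 and 5531 units in the control siRNA channel. Its ratios were -0.33 ± 0.12, -0.62 ± 0.12 and -1.13 ± 0.13, and the control siRNA signal was 2.19 times the Eif4g3 siRNA signal in heavy polysomes. Its 3 probes agreed in sign on every array, with -0.52, -0.26 and -0.20 on the top, -0.72, -0.62 and -0.52 on the light and -1.35, -1.10 and -0.94 on the heavy array; they map to chr11:50137968-50138027, chr11:50138547-50138606 and chr11:50139727-50140508 on mm8, minus strand. Calr (calreticulin, the soluble lectin) had 474, 2146 and 4050 units with Eif4g3 siRNA against 454, 3208 and 7102 units with control siRNA. Its ratios were 0.06 ± 0.15, -0.58 ± 0.15 and -0.81 ± 0.16, with 2 probes that read 0.05 and 0.07 in the top fraction and -0.87 and -0.75 in heavy polysomes. For both Canx and Calr, the ratio was lower in heavy than in light polysomes, and lower in light polysomes than in the top fraction. The light ratio minus the top ratio was -0.29 ± 0.17 for Canx and -0.64 ± 0.21 for Calr. With the scanner software's ratio it was -0.10 and -0.71 relative to the median of all genes, so this step is less firm for Canx.

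**Figure D2:**
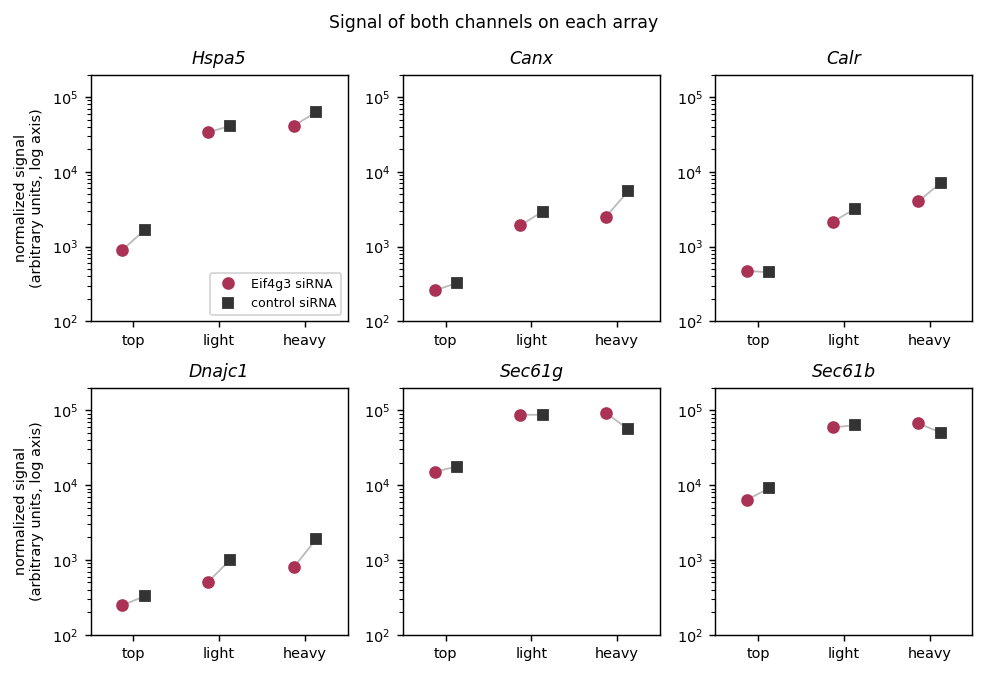
Normalized signal (y axis, arbitrary units, log axis) of the Eif4g3 siRNA channel (circles) and the control siRNA channel (squares) on the top, light and heavy arrays for 6 of the listed genes, 1 value per channel and array. In heavy polysomes Canx had 2530 units with Eif4g3 siRNA and 5531 with control siRNA, whereas Sec61g had 92457 units with Eif4g3 siRNA and 55537 with control siRNA.

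With loess, the disulfide isomerases split into 2 kinds of pattern. Pdia3 (ERp57), which joins calnexin and calreticulin to make disulfide bonds in glycoproteins, had 1984, 14700 and 17287 units with Eif4g3 siRNA against 3055, 23394 and 27492 units with control siRNA. Its ratios were nearly equal in the 3 fractions, -0.62 ± 0.21, -0.67 ± 0.21 and -0.67 ± 0.21, from a single probe. Without loess they were -0.65, -0.29 and -0.77 relative to the medians of all genes, so the near-equality rests on that step. Pdia4 (ERp72) had -0.54 ± 0.21, -0.19 ± 0.20 and -0.59 ± 0.21, P4hb (PDI itself, also a subunit of collagen prolyl hydroxylase) -0.28 ± 0.21, 0.14 ± 0.20 and -0.35 ± 0.21 and Pdia6 (P5) -0.28 ± 0.16, 0.02 ± 0.12 and -0.29 ± 0.12. These 3 were thus below 0 at both ends of the gradient and nearer to 0 or above it in light polysomes.

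The prolyl isomerases had their lowest ratios in the top fraction. Fkbp2, an ER member of the FK506-binding family, had 245, 4168 and 4721 units with Eif4g3 siRNA against 383, 3892 and 4101 units with control siRNA, ratios of -0.64 ± 0.15, 0.10 ± 0.14 and 0.20 ± 0.14, and its 2 probes in the top fraction read -0.86 and -0.42. Ppib (cyclophilin B) had -0.22 ± 0.15, 0.11 ± 0.15 and -0.09 ± 0.14. Creld2 and Armet, small luminal or secreted proteins induced by ER stress, followed the course of Fkbp2. Creld2 had 1869, 30663 and 43234 units with Eif4g3 siRNA against 2916, 32486 and 36432 units with control siRNA, ratios of -0.64 ± 0.21, -0.08 ± 0.20 and 0.25 ± 0.20. Armet had 1281, 19729 and 18154 units with Eif4g3 siRNA against 1895, 19754 and 15315 units with control siRNA, ratios of -0.56 ± 0.21, 0.00 ± 0.20 and 0.25 ± 0.21, also from a single probe.

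The genes for retrieval and degradation of misfolded proteins stayed within 1.5-fold wherever they were measured, 5 of 7 on the top array and all 7 on the light and heavy. Syvn1 (Hrd1, the ubiquitin ligase of the pathway) had -0.45 ± 0.21, 0.04 ± 0.20 and -0.25 ± 0.21, and Sel1l, its membrane partner, had 208 and 255 units with Eif4g3 siRNA in light and heavy polysomes, against 167 and 243 units with control siRNA. The ratios of Sel1l were 0.32 ± 0.13 in light and 0.07 ± 0.14 in heavy polysomes, where its 3 probes read -0.42, 0.24 and 0.40. Herpud1, a membrane adaptor of that complex, had 308, 4294 and 6781 units with Eif4g3 siRNA against 332, 3478 and 7008 units with control siRNA, ratios of -0.11 ± 0.20, 0.30 ± 0.21 and -0.05 ± 0.20, and Edem1, which marks glycoproteins for degradation, -0.09 ± 0.13, -0.15 ± 0.12 and 0.13 ± 0.12. Of the Derlins, membrane proteins of the retrieval channel, Derl1 had -0.35 ± 0.12, -0.10 ± 0.10 and -0.19 ± 0.10 and Derl2 -0.26 ± 0.16, -0.25 ± 0.15 and -0.23 ± 0.15. Derl3 was close to background, with 80.7 and 79.1 units with Eif4g3 siRNA in light and heavy polysomes, against 79.9 and 83.6 units with control siRNA. In heavy polysomes the 4 probes of Derl1 read -0.62, -0.22, -0.12 and 0.21 and the 2 of Derl2 -0.65 and 0.20, so these ratios have no settled sign.

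The sensors of unfolded proteins also stayed within 1.5-fold. Xbp1, whose spliced mRNA encodes the transcription factor made downstream of IRE1, had 77.1, 981 and 1486 units with Eif4g3 siRNA against 83.2, 879 and 1773 units with control siRNA, and ratios of -0.11 ± 0.28, 0.16 ± 0.20 and -0.25 ± 0.21. The array cannot tell spliced from unspliced Xbp1 mRNA here, since 1 probe reads the gene. Atf6, the membrane-bound factor that is cut to reach the nucleus, had -0.05 ± 0.15, 0.01 ± 0.14 and -0.25 ± 0.14, and Ern1 (IRE1), with 89.9, 185 and 206 units with Eif4g3 siRNA against 84.6, 213 and 213 units with control siRNA, had 0.09 ± 0.25, -0.20 ± 0.21 and -0.04 ± 0.21.

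The Sec61 subunits, which form the channel itself, ran in opposite directions in heavy polysomes. Sec61a1, the channel-forming subunit, had 925, 1999 and 3060 units with Eif4g3 siRNA against 899, 2036 and 4040 units with control siRNA, ratios of 0.04 ± 0.15, -0.03 ± 0.12 and -0.40 ± 0.12. Its probes lay on both sides of 0 in the top fraction (-0.18 and 0.26) and in light polysomes (-0.21, -0.15 and 0.28), so its direction there is not settled, and in heavy polysomes they agreed in sign but not in size (-0.87, -0.29 and -0.05). Sec61b, a small tail-anchored subunit, had 6392, 59069 and 66922 units with Eif4g3 siRNA against 9135, 63419 and 50445 units with control siRNA. Its ratios were -0.52 ± 0.21, -0.10 ± 0.20 and 0.41 ± 0.21, below 0 in the top fraction and above 0 in heavy polysomes. Sec61g, the other small subunit, had 15104, 87169 and 92457 units with Eif4g3 siRNA against 17732, 87187 and 55537 units with control siRNA, ratios of -0.23 ± 0.21, 0.00 ± 0.20 and 0.74 ± 0.21, and was the one listed gene higher at 1.5-fold in heavy polysomes. Serp1 (RAMP4), a small protein that stays bound to Sec61 and was read by 2 probes under its older name, had 1819, 22067 and 20759 units with Eif4g3 siRNA against 2154, 21240 and 14362 units with control siRNA, ratios of -0.24 ± 0.15, 0.06 ± 0.14 and 0.53 ± 0.15. Single probes read Sec61b and Sec61g, so no second probe bears on them.

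The translocon-associated proteins, Ssr1 to Ssr4, form a complex beside the channel that helps some signal sequences to enter. Ssr2 had -0.51 ± 0.24, 0.23 ± 0.20 and -0.39 ± 0.21 from a single probe, with 94.8 units in the top fraction with Eif4g3 siRNA against 135 units with control siRNA. Ssr1 had -0.20 ± 0.15, -0.13 ± 0.13 and -0.26 ± 0.12, Ssr3 -0.21 ± 0.12, 0.01 ± 0.12 and 0.20 ± 0.12 and Ssr4 -0.30 ± 0.15, 0.01 ± 0.14 and 0.13 ± 0.14. All 4 were below 0 in the top fraction, while in heavy polysomes Ssr1 and Ssr2 were below 0 and Ssr3 and Ssr4 above it, with the probes of Ssr3 at -0.14, 0.29 and 0.45.

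**Figure D3:**
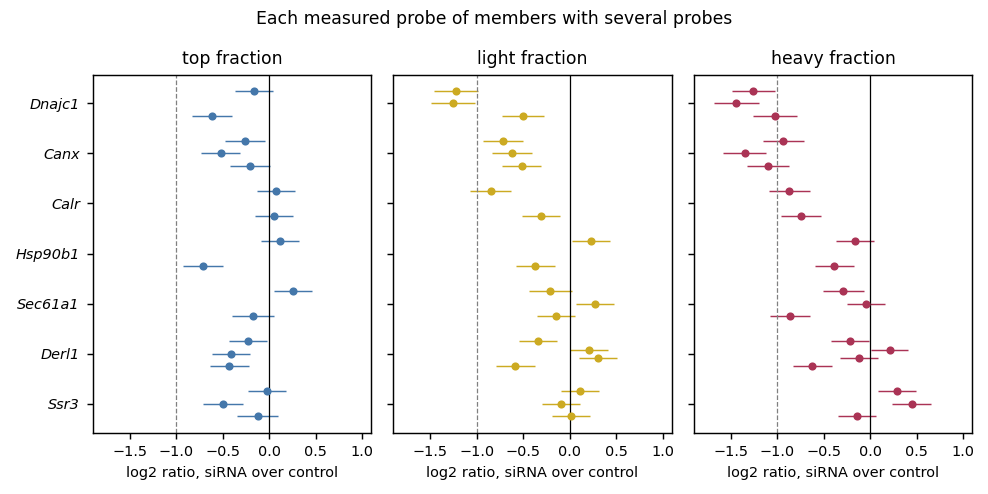
Ratio of Eif4g3 siRNA to control siRNA on the log2 scale (x axis) of each measured probe, with the software's spot error, for 7 of the listed genes that have several probes (y axis), 1 panel per fraction; the dashed line marks 2-fold. All probes of Dnajc1, Canx and Calr lie below 0 in heavy polysomes, while those of Derl1 and Ssr3 fall on both sides of it.

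Whether the siRNA moved an mRNA between gradient fractions was read from the heavy ratio minus the top ratio, taken over the probes measured on both arrays, where above 0 means relatively more in heavy polysomes with Eif4g3 siRNA than the top fraction shows. The median difference was 0.09 over 32 listed genes, with 12 below 0, against a median of 0.00 over 10721 genes, of which 50.1% were below 0. No listed gene passed 2-fold, against 0.811% of all genes higher and 0.7% lower. At 1.5-fold 7 of 32 were higher, against 7.37% of all genes, and 4 of 32 were lower, against 6.03%.

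The 4 lower ones were Dnajc1 at -0.96 ± 0.22, Calr at -0.87 ± 0.21, Canx at -0.80 ± 0.18 and Hyou1 at -0.75 ± 0.29, all chaperones of the lumen or its membrane. The value of Dnajc1 rests on the 2 probes measured in the top fraction. The 7 higher ones were Sec61g at 0.97 ± 0.30, Sec61b at 0.92 ± 0.30, Creld2 at 0.89 ± 0.29, Fkbp2 at 0.84 ± 0.21, Armet at 0.81 ± 0.30, Dnajb11 at 0.65 ± 0.29 and Sdf2l1 at 0.59 ± 0.30, and 6 of these rest on 1 probe. Serp1 had 0.77 ± 0.21 and Dnajc3 0.57 ± 0.15. Hspa5, low on both arrays, differed by 0.27 ± 0.31, Hsp90b1 by 0.02 ± 0.21, Xbp1 by -0.15 ± 0.34 and Sec61a1 by -0.50 ± 0.21, the last over the 2 probes measured on both.

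By role, the median difference was -0.84 for the 2 lectins, -0.15 for the 3 sensors, -0.03 for the 6 isomerases, 0.14 for the 5 degradation genes measured, 0.27 for the 7 genes of the Hsp70 and Hsp90 group, 0.41 for the 7 translocation genes and 0.85 for Creld2 and Armet. The isomerases' median was 0.09 with normexp offset 0 and with the scanner software's ratio, and the heavy median of the translocation genes, 0.13, lay 0.01 below that of all genes without loess; the lectins kept their sign under all 7 alternative settings.

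Most listed genes had a higher ratio in light polysomes than in the top fraction. The light ratio minus the top ratio was above 0 for 26 of 32 listed genes, against 5395 of 10683 genes in all, with medians of 0.28 and 0.00. None passed 2-fold, against 0.318% of all genes higher and 0.739% lower. At 1.5-fold 3 were higher, against 4.74%, namely Fkbp2 at 0.74 ± 0.21, Ssr2 at 0.74 ± 0.32 and Hspa5 at 0.60 ± 0.30, and 2 were lower, against 4.23%, namely Dnajc1 at -0.85 ± 0.22 and Calr at -0.64 ± 0.21. The heavy ratio minus the light ratio had a median of -0.17 over 34 genes, with 20 below 0, against -0.02 over 13688 genes, of which 52.9% were below 0. With the brightest probe of each gene in place of the mean, these medians were -0.02 and -0.01, so that difference depends on how probes are combined. Hyou1 alone was lower at 2-fold, at -1.05 ± 0.29, against 0.628% of all genes, and none was higher, against 0.102%. At 1.5-fold Ssr2 joined it on the lower side, at -0.62 ± 0.29, where 5.84% of all genes were, and Sec61g was higher, at 0.74 ± 0.30, as were 2.68% of all genes.

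The order of the 3 fractions told the genes apart more finely. Among the 32 genes measured on all 3 arrays, the ratio was higher in heavy than in light polysomes and higher in light polysomes than in the top fraction for 11 (Dnajb9, Dnajb11, Sdf2l1, Creld2, Armet, Derl2, Sec61b, Sec61g, Ssr3, Ssr4 and Fkbp2), against 19.9% of 10657 genes. The opposite order was seen for Canx, Calr, Dnajc1 and Sec61a1, 4 of 32, against 18.0%. These orders are of gene means, and for Sec61a1 the light ratio minus the top ratio over the 2 probes measured on both arrays was 0.02 ± 0.21, so its order does not hold over shared probes. Steps between neighbouring fractions were often within the spot errors, as for Derl2, Dnajb9 and Ssr4, so their place in that order is not firm. Without loess, heavy minus light of Creld2 and of Armet was -0.02 and -0.13 relative to the median of all genes, whereas that of Sec61b and Sec61g was 0.14 and 0.35. On all 3 arrays 10 of 32 were below 0 (31.2%), against 20.0% of all genes, and none was above 0 on all 3, against 20.0%. The 10 were Hspa5, Hsp90b1, Canx, Pdia3, Pdia4, Dnajc1, Sdf2l1, Derl1, Derl2 and Ssr1. The probes of Hsp90b1, Derl1, Derl2 and Ssr1 lay on both sides of 0 on some of the arrays, so their signs there are not settled.

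**Figure D4:**
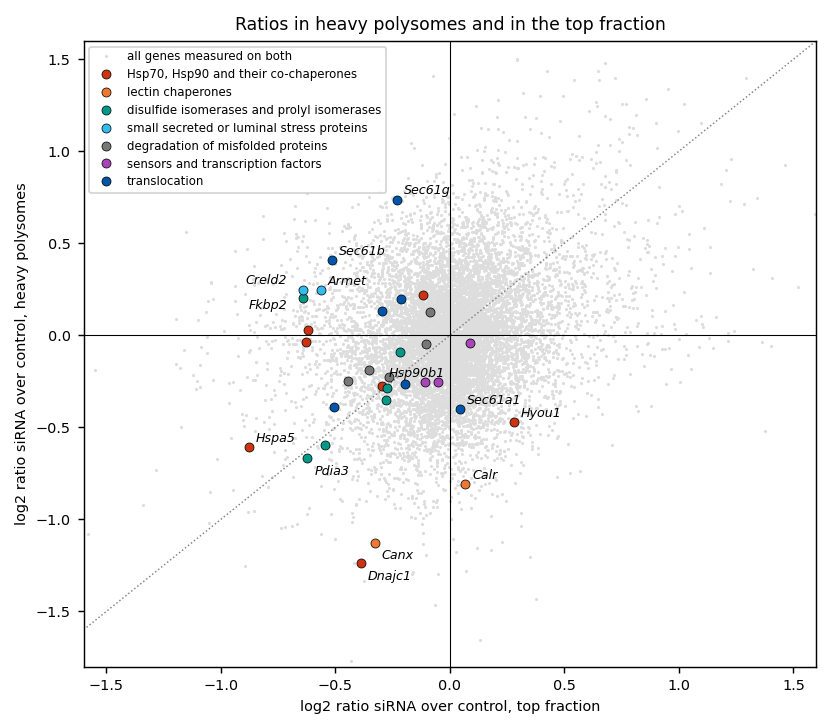
Ratio of Eif4g3 siRNA to control siRNA, on the log2 scale, in heavy polysomes (y axis) against that in the top fraction (x axis), for the 32 listed genes measured on both arrays (coloured by role) and all genes measured on both (grey, points beyond the axes not drawn); genes on the dotted line have equal ratios. Canx, Calr and Dnajc1 lie below the line, and Sec61b, Sec61g, Creld2, Armet and Fkbp2 above it to the left of 0.

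Where these mRNAs sit in the gradient of control cells was read from the control siRNA channel alone, as its signal in heavy polysomes over that in the top fraction after the arrays' intensities were put on 1 scale, a place relative to the other genes rather than a share of the mRNA. The median log2 value was 0.53 over 32 listed genes, at the 71.3rd percentile of genes, against -0.06 over 11158 genes. Of the 32, 27 lay above 0, against 5328 of 11158 genes. Among the 32, 9 were at least 2-fold more in heavy polysomes and none at least 2-fold less, against 15.7% and 20% of all genes. Light over top, 6 of 32 (Hspa5, P4hb, Xbp1, Sec61b, Sec61g and Ssr2) were at least 2-fold more, against 7.08% of all genes, and none at least 2-fold less, against 10.7%.

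P4hb stood highest at 3.05 (percentile 99.7), then Hspa5 at 2.28 (98.4), Ssr2 at 1.96 (97.1), Sec61a1 at 1.81 (96.2), Pdia6 at 1.73 (95.5) and Xbp1 at 1.67 (95.0). Hsp90b1 and Pdia4 were both at 1.42, Canx at 0.74, Calr at 0.59 and Dnajc1 at 0.47. Ern1 stood lowest at -0.94 (21.8), and Sdf2l1 (-0.46), Armet (-0.31), Ssr3 (-0.24) and Fkbp2 (-0.18) were also below 0. The places of Ern1, Xbp1 and Ssr2 are less firm, since each rests on 1 probe with a dim control siRNA signal in the top fraction (84.6, 83.2 and 135 units).

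Between the polysome fractions the small proteins of the channel sat lighter. In the control siRNA channel, heavy over light was -0.97 for Sec61b and -0.94 for Sec61g, at percentiles 5.4 and 5.8 of 14055 genes, -0.94 for Serp1 and -0.76 for Armet. At the other end were Hyou1 at 1.26 (percentile 98.4) and P4hb at 1.02, with Calr at 0.75 and Canx at 0.53. Hyou1 and P4hb were the 2 of 34 at least 2-fold more, against 3.69% of all genes, and none was at least 2-fold less, against 4.87%. The control siRNA signal also stands in the denominator of the siRNA ratio of the same array, so these values and the heavy ratios share measurements, and no correlation between them is given.

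**Figure D5:**
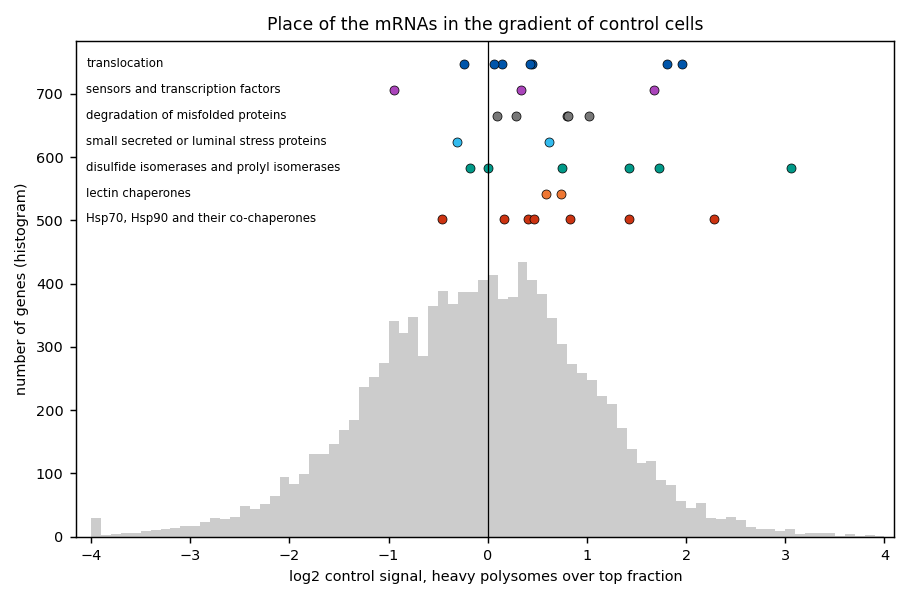
Log2 control siRNA signal in heavy polysomes over the top fraction (x axis) for 11158 genes (grey histogram, y axis the number of genes, values beyond 4 drawn at the ends) and for the 32 listed genes with both values (dots above the histogram, 1 row per role, whose height has no scale). P4hb lies farthest right, at 3.05, and Ern1 farthest left, at -0.94.

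The genes with an ER stress element in the printed stretches did not form 1 pattern. In heavy polysomes 7 of the 8 were below 0, with a median of -0.28 and a range of -1.13 (Canx) to 0.25 (Creld2), and 11 of the 20 listed genes without the element were below 0, with a median of -0.04. Of all measured genes, 51.7% were below 0 there. In the top fraction the medians were -0.33 over 7 measured genes with the element and -0.26 over 19 without, in light polysomes -0.08 and -0.05, and for heavy minus top 0.02 and 0.13. Among genes with the element, heavy minus top ran from -0.87 (Calr) to 0.89 (Creld2), nearly the whole range of the listed genes. The 16 further array gene names with the element had medians of -0.11 in the top fraction (4 measured) and -0.04 in heavy polysomes (10 measured). These 16 include the listed gene Dnajc3 under its older name, so they are not a set apart from the list. Dnajc3 was the lowest of the 4 in the top fraction, at -0.32, and the highest of the 10 in heavy polysomes, at 0.24.

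The other genes of the ER folding pathway were drawn from 9 further lists, 93 genes on the array. They lay closer to all genes, with medians of -0.12 over 81 measured on the top array, 0.01 over 89 on the light and -0.12 over 90 on the heavy, and with 57, 43 and 58 below 0, which is 70.4%, 48.3% and 64.4% against 49.6%, 47.4% and 51.7% of all measured genes. In the top fraction 3 of 81 were lower at 2-fold, against 0.265% of all genes, and in heavy polysomes 1 of 90, against 0.306%. None was lower on the light array, against 0.291%, and none was higher on the 3 arrays, against 0.429%, 0.397% and 0.507% on the top, light and heavy.

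Sdf2, the close relative of Sdf2l1, had 1632, 19031 and 25443 units with Eif4g3 siRNA against 3481, 30168 and 30974 units with control siRNA, ratios of -1.09 ± 0.23, -0.66 ± 0.21 and -0.28 ± 0.21. Fkbp9, an ER prolyl isomerase of the Fkbp2 family, had 570.1, 7486 and 12113 units with Eif4g3 siRNA against 1182, 14116 and 24600 units with control siRNA, ratios of -1.05 ± 0.23, -0.92 ± 0.22 and -1.02 ± 0.22, and was the one pathway gene lower at 2-fold in 2 fractions. Spcs1, a small subunit of the signal peptidase that trims proteins behind the Sec61 channel, had 1450, 31045 and 35814 units with Eif4g3 siRNA against 2967, 35831 and 31248 units with control siRNA. Its ratios of -1.03 ± 0.22, -0.21 ± 0.21 and 0.20 ± 0.20 gave a heavy minus top difference of 1.23 ± 0.30, the one pathway gene beyond 2-fold in that comparison. A single probe read each of the 3.

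In the list of the signal recognition particle, which brings ribosomes to the channel, heavy minus top ran from -0.57 for Srp72 to 0.94 for Srp14, and in the list of the translocon and signal peptidase from -0.22 for Sec63 upwards to Spcs1. In the oligosaccharyltransferase, which attaches glycans, it ran from -0.45 for the catalytic subunit Stt3a to 0.68 for Tusc3, and in glycan trimming from -0.50 for Ganab (glucosidase II) to 0.27 for Man1b1. Among the degradation genes it ran from -0.93 for the lectin Os9 to 0.35 for the ligase Rnf5. Oxidation and further isomerases spanned -0.15 for Txndc5 to 0.71 for Ero1l, which reoxidises PDI. The further stress genes spanned -0.47 for Wfs1 to 0.51 for Mbtps1 (the protease that cuts Atf6), collagen folding -0.76 for Plod3 to 0.83 for Fkbp7, and the further co-chaperones -0.03 for Dnajb12 to 0.81 for Sdf2.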

How the data were processed

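Polysome fractions of lymph node stromal cells were measured on 3 Agilent 2-colour arrays, 1 per fraction, all on 1 slide. For each spot and channel the deposited files give a linear intensity read by Agilent Feature Extraction 10.5.1.1, as stated in their headers. The software's log10 ratio of red over green, its error and a single-spot p-value of that ratio, not used here, are in the same deposited files. A value table deposited by the authors gives log2 ratios, which differed from the software's ratio by at most 3.5e-06 over measured single-spot probes. That settled its scale and direction, and its column medians were -0.09, -0.01 and 0.22 for the top, light and heavy arrays. Probe coordinates are on mm8, per the file headers.

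Ratios were recomputed with limma 3.58.1 in R 4.3.3 from mean signals and median backgrounds, by normexp with an offset of 50 and loess within each array, control spots at weight 0. Outlier spots by array (220, 170 and 183 for top, light and heavy) were left out and no spot was saturated. The offset pulls dim ratios towards 0: the slope on the software's ratios was 0.57, 0.72 and 0.72. A probe was measured where both channels were well above background, and a gene is the mean of its measured probes. Spot errors are the software's, combined over probes and not rescaled. The median SD between probes of a gene was 0.11, 0.16 and 0.15. Control-channel places used Aquantile normalization.

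All listed genes are accounted for. Full values are given for those past 2-fold, the 3 highest and lowest of each array and of heavy minus top, and Hspa5, Hsp90b1, Calr, Canx, Xbp1, Sec61a1 and Dnajc1; of other pathway genes, those past 2-fold and the highest and lowest of each list. Members, lists, motifs and thresholds were chosen with earlier results of these data known. Alternatives covered background, dye normalization, the software's ratio, filters, the value of a gene with several probes and the threshold. Promoters were matched by symbol to RefSeq. Hyou1, Armet, Atf6, Derl1, Sec61a1 and Ssr2 were not matched there. Protein sequences were not used here, and 1 list of cell type markers is not reported here.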

Additional observations from a re-analysis of the deposited data

Results flagged for a closer look

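Hyou1, the large Hsp70 relative, stood at 0.58 in light polysomes and at -0.47 in heavy polysomes (log2 of Eif4g3 siRNA over control), each farther from 0 than 2 spot errors and on opposite sides of it. The difference was not tested, since each fraction has 1 array, and 1 probe of the gene was measured.

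Sel1l, which has no ratio on the top array, was well above background there in the Eif4g3 siRNA channel alone, by 1 probe. That probe's Eif4g3 siRNA signal was 1.09 times its control siRNA signal. The log2 value, 0.13 ± 0.50, was smaller than its spot error and is open to dye bias, so no direction is settled.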

How the results depend on the processing

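No paired analysis was possible because each fraction has 1 array and no replicate. In heavy polysomes 2 listed genes were lower at 2-fold, as in the other alternatives except no loess, with 19 (of all genes 27.8%), and the 1.5-fold threshold, with 6 (and 1 higher). In the top fraction 1 was lower with the scanner software's ratio (Ssr2, -1.15) and 6 at 1.5-fold, against 0. In light polysomes 1 was lower (Dnajc1, from -1.13 to -1.26) with normexp offset 0, the software's ratio, bright probes only, the median of probes and the brightest probe, 3 were lower at 1.5-fold and 8 were higher without loess (of all genes 18.3%), against 0. For heavy minus top, 2 were higher with the software's ratio (Armet 1.01, Sec61g 1.09), 1 with the brightest probe (Fkbp2, 1.08) and 7 at 1.5-fold, and 8 were lower without loess (of all genes 39.9%) and 4 at 1.5-fold, against 0. The median ratio in the top fraction was -0.42 with the software's ratio. With the brightest probe the median was -0.06 in heavy polysomes and -0.02 for heavy minus light, where those of all genes were -0.004 and -0.01. Without loess the medians were 0.84 in light and -1.03 in heavy polysomes, -0.78 for heavy minus top, -1.84 for heavy minus light and 1.18 for light minus top, where those of all genes were 0.62, -0.74, -0.89, -1.49 and 0.73. Relative to those, the sign turned in light polysomes (0.21 against -0.03) and not for heavy minus top (0.11 against 0.09). Of 910 values of single genes, 730 stayed within the spread between probes, 140 moved beyond it (65 of them without loess), 40 passed 2-fold where they had not (31 of them without loess), and none was lost or changed sign while called. The cause of these changes was not tested. Dim signals in the top fraction limit what its ratios can show.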
